A study of Arabidopsis thaliana with 3 samples.

Results

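Glycolysis genes were followed on 3 arrays of Arabidopsis thaliana rosette leaves, as a list of 41 loci for enzymes that lead from hexokinase to pyruvate kinase, most of them cytosolic, together with UDP-glucose pyrophosphorylase, which prepares the products of sucrose breakdown for the pathway. The rule for the list names enzymes and uses no measured value, but the list was drawn up with earlier results of these data known. Features were matched to loci through a table of features and Entrez genes and the RefSeq gene table. Of the 41 loci, 16 had a feature paired with them, 1 feature each, among 28785 features on the array. The other 25 had none paired in the tables used here and were not analysed here.

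Total RNA came from rosette leaves of plants aged 2 weeks in the Col-0 accession, with 1 array each for 2 transgenic samples, numbered 41 and 45 and called line 41 and line 45 here, and 1 array for wild-type plants. Both transgenic samples carried AtMYB23SRDX under the 35S promoter, a promoter active in most plant tissues. MYB23 belongs to the R2R3-MYB proteins that act in trichome formation, and SRDX is a short motif that converts a transcription factor into a repressor. The labels do not say whether plants were pooled, and the feature for MYB23 itself was not among those paired, so the transgene could not be used to check the labels. Of 14 leaf marker genes 4 were paired, and the log2 of their summed linear level was 15.23 in line 41, 14.79 in line 45 and 12.75 in wild type. RCA, LHCB4.1 and LHCB4.2 were bright on all arrays, while LHB1B2, an antenna protein gene, was dim, at 4.92 in line 41, 5.12 in line 45 and 4.57 in wild type. The 2 root marker genes with a feature (of 8 listed) summed to 6.08, 6.27 and 6.55 in the same order. Both were dim and not tested, EXPA7 at 4.96, 5.12 and 5.37 and EXPA18 at 5.20, 5.40 and 5.72. None of the flower and seed markers was paired. As bulk leaf RNA was measured, fewer cells of a type and less RNA per cell cannot be told apart.

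Glycolysis splits a hexose phosphate into triose phosphates and converts these to pyruvate, with a net gain of ATP and NADH. In plants the pathway runs in the cytosol and, in part, in the plastid, and most steps are encoded by small gene families. A leaf in light can feed it with triose phosphate exported from the chloroplast, so that the cytosolic steps below triose phosphate carry carbon toward respiration and amino acid synthesis. Plants also have a phosphofructokinase that uses pyrophosphate in place of ATP and works in both directions.

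The data show a rise at few points of the pathway. Of the 16 genes with a feature, 12 had a mean over the 3 arrays above the filter for dim features (a log2 level of 5.64) and were tested. Among these 12, 4 were higher in the lines by limma and 0 were lower (Benjamini-Hochberg adjusted p under 0.05 over all features tested). The 4 were GAPC2 of the glyceraldehyde-3-phosphate dehydrogenase step, the cytosolic triose-phosphate isomerase gene TPI, AT1G12000 for the beta subunit of pyrophosphate-dependent phosphofructokinase, and AT5G56350, a pyruvate kinase gene. Over all 16905 features tested, limma called 14.6% higher and 7.27% lower, beside 33.3% of the glycolysis genes tested that were higher. Among the 9681 named genes tested, the shares were 11.1% higher and 7.91% lower. Of the 12 genes, 3 were at least 2-fold higher in both lines and 0 at least 2-fold lower, where 9.77% and 1.44% of all features tested, and 7.19% and 1.46% of the named genes, were. The other 8 tested genes did not pass, and limma gave 0 falls also at an unadjusted p under 0.05 among them. The median log2 change of the 12 was 0.21, against -0.038 over all features tested.

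All 12 tested genes had a wild-type level above the dim filter as well, so none entered the test only through the lines. The shares over all features and over the named genes are not restricted by the wild-type level. They are therefore not a like measure for the 12. By direction alone, 8 of the 12 tested genes were above wild type in both lines, 3 were below it in both and 1 lay on opposite sides, where 39.1% of all features tested were above it in both and 44.4% below it in both. The 4 genes under the dim filter, which were not tested, were above wild type in both lines. Both lines are set against the same wild-type array, so their directions are not independent of each other. Each limma p and SE combines the spread between line 41 and line 45 with a prior spread estimated from all features tested. The lines give 1 residual degree of freedom and the prior 6.76, so the prior weighs more than the spread of the gene itself. An exact two-sided permutation of 2 against 1 arrays could not go below 0.333.

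**Figure D1:**
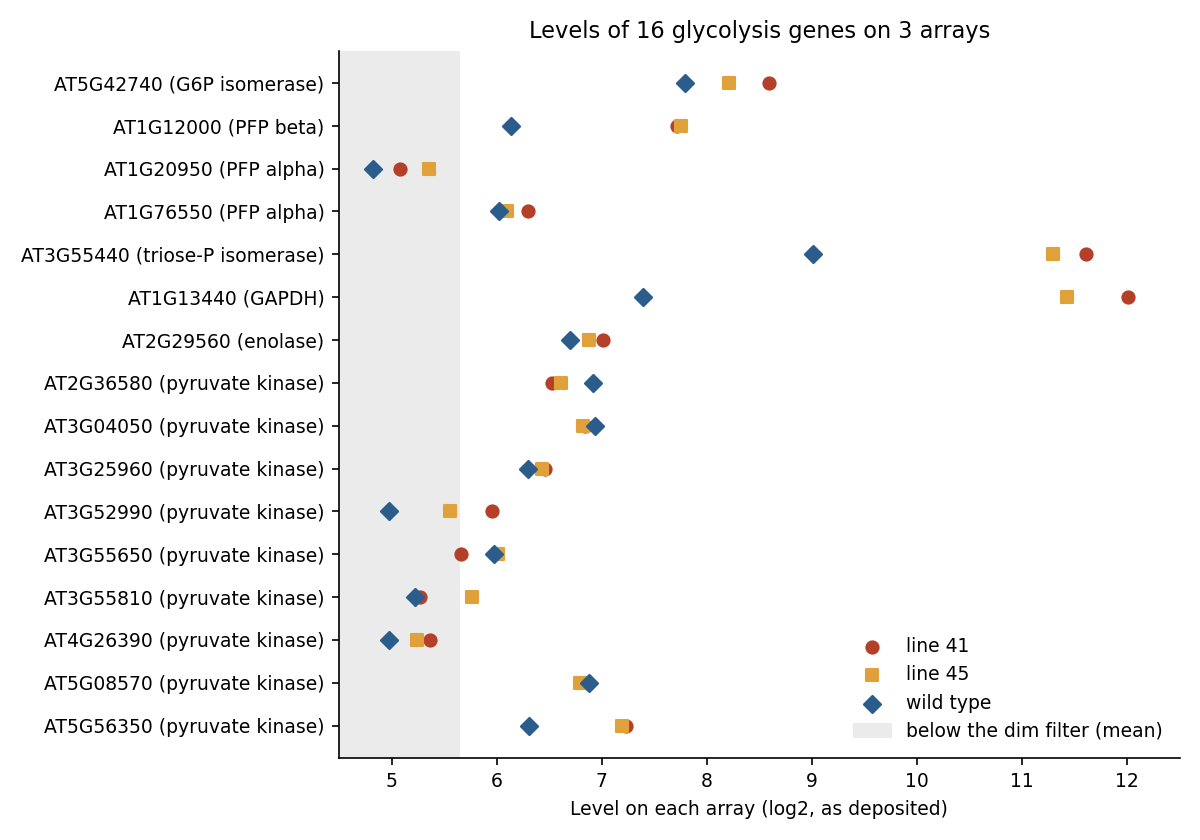
Level (log2, as deposited) of the 16 glycolysis genes with a feature, in pathway order from top to bottom, on the arrays of line 41 (circles), line 45 (squares) and wild type (diamonds); the grey zone lies below the dim filter of 5.64. Symbols are to be compared within a row only, and in GAPC2 (AT1G13440), TPI (AT3G55440) and AT1G12000 both lines stand well to the right of wild type.

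Among the hexose phosphate steps, glucose-6-phosphate isomerase and pyrophosphate-dependent phosphofructokinase had features. AT5G42740, the gene of the cytosolic glucose-6-phosphate isomerase that interconverts glucose and fructose phosphates, had log2 levels of 8.59 in line 41 and 8.21 in line 45, against 7.79 in wild type. Both lines were above wild type, by 0.80 and 0.42, and the mean log2 change of 0.61 ± 0.25 (SE, 2 lines against 1 array) did not pass (adjusted p = 0.131 by limma). It remained short of the threshold under all 11 other settings tested, with adjusted p from 0.0727 to 0.281. The hexokinase genes HXK1 and HXK2, the UDP-glucose pyrophosphorylase genes UGP1 and UGP2 and the ATP-dependent phosphofructokinase genes PFK1 to PFK7 had no feature paired with them.

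Pyrophosphate-dependent phosphofructokinase is built from alpha subunits, which regulate the enzyme, and beta subunits, which hold the catalytic site. The beta subunit gene AT1G12000 had log2 levels of 7.72 in line 41 and 7.75 in line 45, against 6.13 in wild type. It rose 3.04-fold (log2 change 1.60 ± 0.22 SE, adjusted p = 0.00191 by limma), and the lines were close to each other, with a difference of -0.030 (line 41 minus line 45). The alpha subunit gene AT1G76550 stood at 6.30 in line 41, 6.10 in line 45 and 6.03 in wild type, and its log2 change of 0.17 ± 0.21 did not pass (adjusted p = 0.610). The other alpha subunit gene, AT1G20950, was dim on all arrays, at 5.08 in line 41, 5.36 in line 45 and 4.82 in wild type, and was not tested.

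Set side by side, the subunit genes had unequal log2 changes. The log2 change of AT1G12000 exceeded that of AT1G76550 by 1.31 in line 41 and by 1.55 in line 45. This difference was not tested, since each line had 1 array, and AT1G20950 was too dim for such a comparison. The other beta subunit gene, MEE51 (AT4G04040), had no feature paired.

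Triose-phosphate isomerase, which interconverts the triose phosphates made by aldolase, was measured through its cytosolic gene TPI (AT3G55440). TPI had log2 levels of 11.61 in line 41 and 11.29 in line 45, against 9.01 in wild type. Both lines lay more than 2 log2 units above wild type, at 2.60 and 2.28, and the gene rose 5.42-fold (log2 change 2.44 ± 0.25 SE, adjusted p = 0.000647 by limma). It ranked 342 among 16905 features by the size of its rise. After quantile normalization the rise was 3.02-fold (1.60 ± 0.21, adjusted p = 0.000493), and after cyclic loess, which removes the trend of the difference with signal, it was 2.78-fold (1.48 ± 0.26, adjusted p = 0.00134).

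The greatest change on the list was in GAPC2 (AT1G13440), for the cytosolic glyceraldehyde-3-phosphate dehydrogenase that oxidises triose phosphate and yields NADH. GAPC2 had log2 levels of 12.01 in line 41 and 11.43 in line 45, against 7.39 in wild type. That is 24.6-fold above wild type in line 41 and 16.4-fold in line 45, and over both lines 20.09-fold (log2 change 4.33 ± 0.29 SE, adjusted p = 0.000288 by limma). Its rise ranked 7 among all 16905 features and 2 among the 9681 named genes tested. It ranked 7 in line 41 and 13 in line 45 when each line was taken alone. The lines were further apart for GAPC2 than for any other gene of the 16, by 0.58. With cyclic loess the rise was 11.5-fold (3.52 ± 0.28, adjusted p = 1.1e-05), and it passed under 10 of the 11 other settings tested, the exception being the floor without the dim filter.

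GAPC1 (AT3G04120), the close cytosolic copy of GAPC2, and the plastid copies GAPCP-1 and GAPCP-2 had no feature paired with them. The probe sequences were not used here, so it was not tested how much RNA of GAPC1 the GAPC2 feature may capture. The value is therefore that of the feature assigned to GAPC2, and no comparison between the copies was possible. The leaf markers tested, 3 of 14, moved the same way as GAPC2 and TPI, and all 3 rose, by 2.04 to 2.51 on the log2 scale. They were bright features, and such features rose more often. Of the brightest of 5 equal bins by mean level, 34.6% were higher by limma. The brightest of 40 bins had a median log2 change of 1.56 and an upper quartile of 2.41. LHB1B2, which was paired but too dim to test, had a log2 change of 0.45. The part of the leaf markers in the result was not tested.

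**Figure D2:**
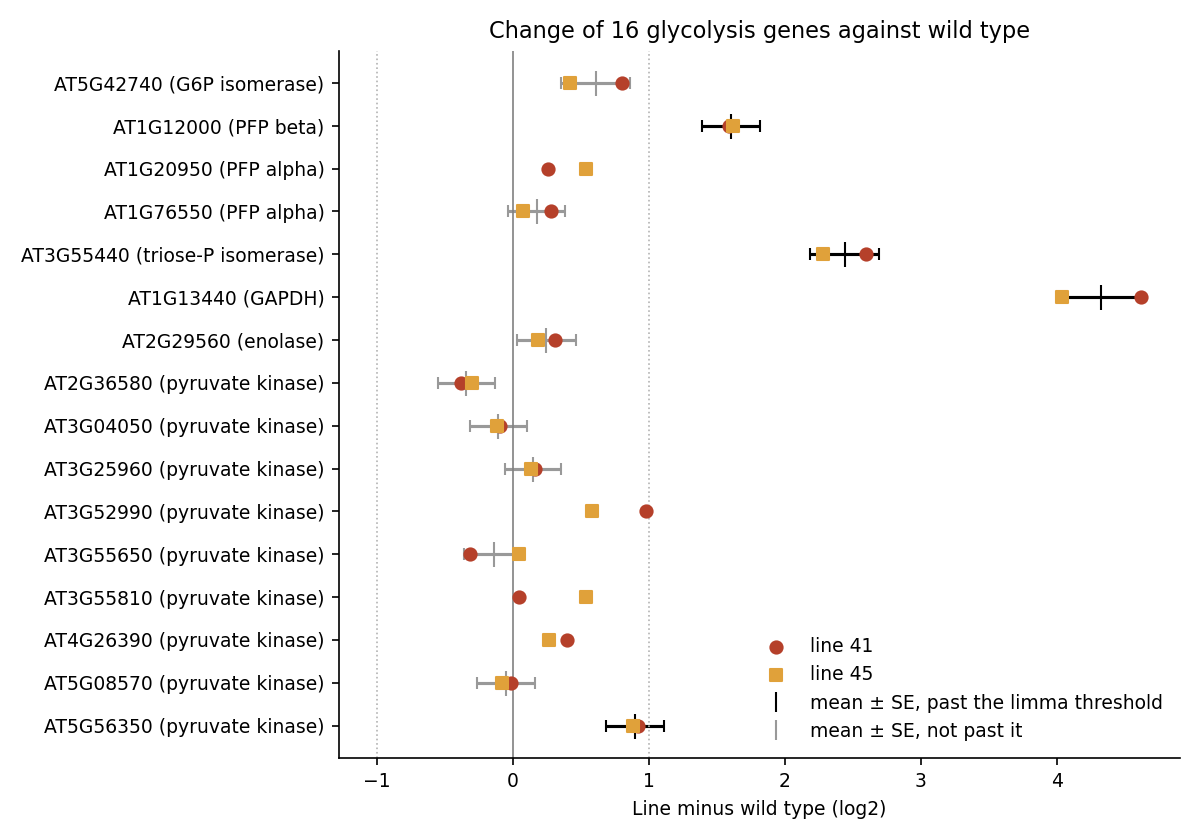
Log2 difference from wild type of each of the 16 genes in line 41 (circles) and line 45 (squares), with the mean and its SE for the 12 tested genes; black bars passed limma, grey ones did not, and dotted lines mark 2-fold. GAPC2 (AT1G13440), TPI (AT3G55440) and AT1G12000 lie beyond 2-fold in both lines, and most pyruvate kinase genes lie around 0.

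Aldolase and the steps between triose phosphate oxidation and enolase could not be followed. The aldolase genes FBA4, FBA5, FBA6 and FBA8 and the plastid gene FBA3, the phosphoglycerate kinase gene PGK and the phosphoglycerate mutase genes iPGAM1 and iPGAM2 had no feature paired. For enolase, which forms phosphoenolpyruvate, ENOC (AT2G29560) was measured, at 7.01 in line 41, 6.88 in line 45 and 6.70 in wild type. Its log2 change was 0.25 ± 0.22 SE (adjusted p = 0.471 by limma). The enolase genes LOS2, which encodes a cytosolic form, and ENO1 of the plastid had no feature paired. Line 41 lay 0.31 and line 45 0.18 above wild type for ENOC.

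Pyruvate kinase, which makes pyruvate and ATP from phosphoenolpyruvate, was the best covered step, with a feature for each of its 9 listed genes. Of these, 6 were tested, 1 was higher in the lines and 5 did not pass (adjusted p from 0.294 to 0.899 by limma), a count near the 14.6% of all features called higher. Their mean log2 changes ran from -0.34 to 0.90, with a median of -0.079, against -0.038 over all features tested.

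AT5G56350 was the pyruvate kinase gene that passed. It had log2 levels of 7.23 in line 41 and 7.19 in line 45, against 6.31 in wild type, and rose 1.86-fold (log2 change 0.90 ± 0.21 SE, adjusted p = 0.0212 by limma). The lines agreed to within 0.036. The change stayed under 2-fold in each line, at 0.92 and 0.88 on the log2 scale.

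The pyruvate kinase gene furthest below wild type was AT2G36580, at 6.53 in line 41 and 6.61 in line 45, against 6.91 in wild type. Both lines were below wild type, and the log2 change of -0.34 ± 0.21 did not pass (adjusted p = 0.294 by limma). AT5G08570 was level across the arrays, at 6.87 in line 41, 6.80 in line 45 and 6.88 in wild type. AT3G04050, at 6.85, 6.82 and 6.94 in the same order, and AT3G25960, at 6.46, 6.43 and 6.30, had log2 changes of -0.11 and 0.15 and did not pass (adjusted p = 0.766 and 0.664 by limma). AT3G55650 stood at 5.66 in line 41, 6.02 in line 45 and 5.98 in wild type, so line 41 was below wild type and line 45 close to it.

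The remaining 3 pyruvate kinase genes were dim. AT3G52990 had log2 levels of 5.95 in line 41 and 5.55 in line 45, against 4.97 in wild type, a difference of 0.98 and 0.58. AT4G26390 stood at 5.37 in line 41, 5.24 in line 45 and 4.97 in wild type, and AT3G55810 at 5.27, 5.76 and 5.23. All 3 had means under the filter and were not tested. With neither filter nor floor, a setting added after seeing the data, AT3G52990 passed (log2 change 0.78 ± 0.21 SE, adjusted p = 0.0381 by limma), which made 5 glycolysis genes higher in place of 4. AT4G26390 (adjusted p = 0.210) and AT3G55810 (adjusted p = 0.434) did not pass in that setting.

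Set side by side, the pyruvate kinase genes also had unequal log2 changes. The change of AT5G56350 exceeded that of AT2G36580 by 1.30 (log2) in line 41 and 1.18 in line 45, that of AT5G08570 by 0.93 and 0.96, and that of AT3G04050 by 1.01 and 1.002. Each of these 3 genes lay below wild type in both lines and AT5G56350 above it. A shared sign was therefore fixed by the choice of pairs. Other pairs had a sign that differed between the lines, as AT5G08570 against AT3G55650, at 0.31 in line 41 and -0.13 in line 45. The lines use the same wild-type array, and none of these differences was tested. Copies of one family can share signal on an array, and this was not tested.

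The size of a rise has to be read beside the signal, because on these arrays bright features were more often above wild type. When the features tested were cut into 5 equal bins by the mean over the 3 arrays, 34.6% of the brightest bin were higher by limma, against 3.9% of the dimmest. GAPC2, TPI and AT5G42740 were in the brightest bin, AT1G12000 in the next one, where 17% were higher, and AT5G56350 in the middle one, where 10.4% were higher. A ranking by mean level includes the lines and so places genes that rise among the bright ones.

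With 40 bins, the brightest held 423 features, among them GAPC2 and TPI, and had a median log2 change of 1.56, an upper quartile of 2.41 and a 95th percentile of 3.30. GAPC2, at 4.33, lay above that percentile, while TPI, at 2.44, lay near the upper quartile. Ranked by the wild-type level instead, which leans the other way, the bin that holds TPI had a median of -0.16 and a 95th percentile of 2.38, and the one that holds GAPC2 -0.13 and 1.74. For AT1G12000 the 95th percentile was 1.67 by mean level and 0.92 by wild-type level, against its change of 1.60. For AT5G56350 these were 1.40 and 1.18, both above its change of 0.90.

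**Figure D3:**
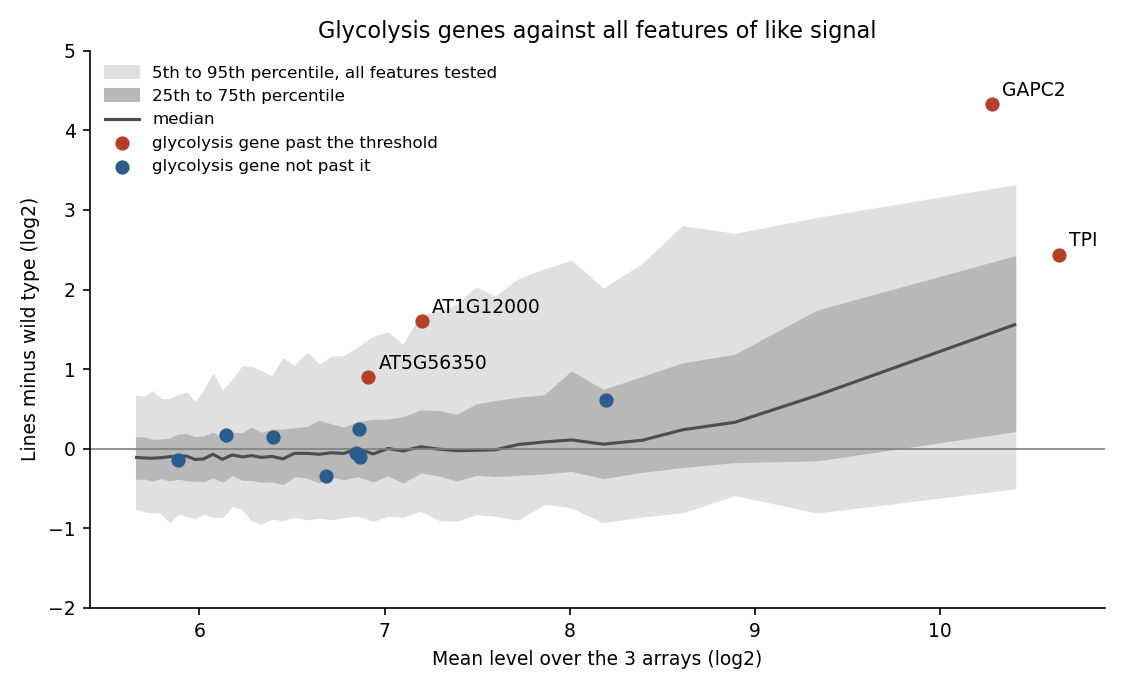
Log2 change of the lines against wild type for the 12 tested glycolysis genes (points) over the mean level on the 3 arrays, with the spread of all 16905 features tested in 40 bins of mean level (bands, median as a line). The bands climb at high signal, GAPC2 lies above them at 4.33 and TPI, at 2.44, lies just above the upper quartile of its bin, 2.41.

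Scaling changed the size of the rises in the bright genes and left those of the middle range nearly as they were. For AT1G12000 the log2 change ran from 1.54 to 1.66 over the settings that keep both lines, and for AT5G56350 from 0.83 to 0.97. For TPI it ran from 1.48 to 2.50 and for GAPC2 from 3.52 to 4.39. The values of each line alone are those given above. All 4 passed under every one of the 4 other scalings. They did not pass where the floor was kept without the dim filter, a setting in which limma called 0 of 28124 features, with 7167 at an unadjusted p under 0.05.

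**Figure D4:**
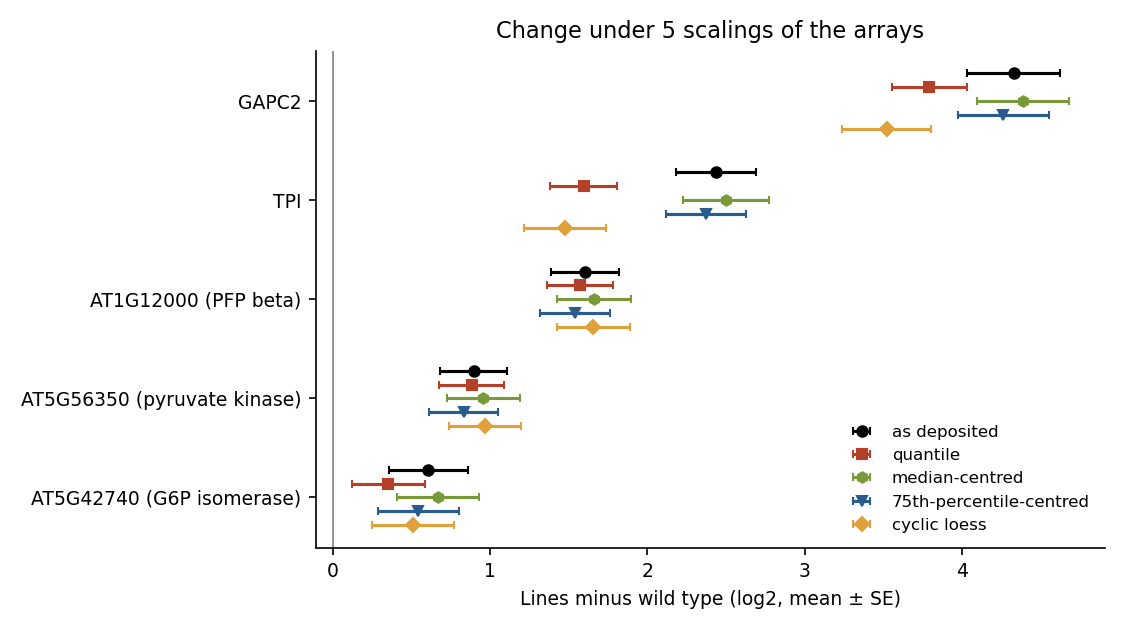
Mean log2 change of the lines against wild type with its SE, for the 4 genes past the threshold and for AT5G42740, with values as deposited and under 4 other scalings. GAPC2 and TPI shrink under quantile and cyclic loess scaling, to 3.79 and 3.52 and to 1.60 and 1.48, while AT1G12000 stays between 1.54 and 1.66.

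Line 41 and line 45 were close for these genes. The median absolute log2 difference between the lines was 0.11 over the 12 tested genes, against 0.18 over all features tested. No gene of the 16 reached 2-fold between the lines. Only 83 of the 16905 features tested did, a share too small for 16 genes to be told apart from it. Line 41 was the higher line in 11 of the 16 genes, which include the 4 under the dim filter, and in 49.6% of all features tested. The widest gaps, 0.58 in GAPC2, -0.49 in AT3G55810 and 0.40 in AT3G52990 (line 41 minus line 45), ran in both directions, and with 1 array a line none was tested.

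Pathways that meet glycolysis were described by 6 lists with 112 loci, of which 33 had a feature and 25 were tested. Among the 25, 8 were higher in the lines and 0 lower by limma, with a median log2 change of 0.34, where 14.6% of all features tested were higher and 7.27% lower. Of those 8, 3 had a wild-type level under the dim filter and so passed the filter only through the lines, where they were high. DPE1, tested but not called, also entered this way, so the count and the median are no support for a shift of the lists. The 5 other genes called came from 21 genes whose wild-type level was above the filter. The nearest shares are 11.1% of the named genes tested and 14.6% of all features tested. Neither share is restricted by the wild-type level, so neither is a like measure for this count. In the sucrose and starch list the only higher member was one of the 3 called genes that passed the filter only through the lines. Over the 6 lists 17 tested members did not pass.

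Nearest to the glycolysis genes were 2 further genes, for enzymes at and just after triose phosphate oxidation. AT1G56190, for a phosphoglycerate kinase known from the chloroplast, had log2 levels of 9.36 in line 41 and 8.84 in line 45, against 7.18 in wild type, and rose 3.79-fold (1.92 ± 0.28 SE, adjusted p = 0.00256 by limma). ALDH11A3 (AT2G24270), for the non-phosphorylating glyceraldehyde-3-phosphate dehydrogenase that bypasses the phosphorylating route, had 9.44 in line 41 and 9.34 in line 45, against 7.74 in wild type, and rose 3.15-fold (1.66 ± 0.23, adjusted p = 0.00219). These were the only members with a feature among 13 plastid copies and among 7 further cytosolic genes. 

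In the sucrose and starch list 8 of 28 loci had a feature and 3 were tested. The 1 called higher, AT5G51970, is known as a sorbitol dehydrogenase gene and so not an enzyme of sucrose or starch breakdown. It stood at 8.27 in line 41 and 8.07 in line 45, against 5.15 in wild type, which is at least 5.77-fold higher with the wild-type level raised to the dim filter. It passed that filter only through the lines, so its limma p is not given. DPE1, for a plastid glucanotransferase of starch breakdown, had a log2 change of 0.49 (adjusted p = 0.122), and the fructokinase gene AT3G59480 one of -0.17 (adjusted p = 0.606).

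In the list for pyruvate use 8 of 24 loci had a feature, 7 were tested and 2 were higher. Of all features 14.6% were higher, and of the named genes 11.1%. MAB1 (AT5G50850), for the E1 beta subunit of mitochondrial pyruvate dehydrogenase, had log2 levels of 7.66 in line 41 and 8.21 in line 45, against 6.39 in wild type, and rose 2.92-fold (1.54 ± 0.28 SE, adjusted p = 0.00671 by limma). PDC2 (AT5G54960), for a pyruvate decarboxylase of ethanolic fermentation, stood at 7.05 in line 41 and 6.70 in line 45, against 5.15 in wild type, at least 2.35-fold higher. It too passed the dim filter only through the lines. The genes for the E2 subunit of pyruvate dehydrogenase, AT1G54220 and AT3G13930, stood at -0.35 and 0.029 and did not pass. PPDK, for the dikinase that can run the last step of glycolysis in reverse, stood at 0.73 (adjusted p = 0.0529).

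In the oxidative pentose phosphate list 3 of 14 loci were tested and 1 was higher, too few to set beside the 14.6% of all features. AT3G02360, a gene for 6-phosphogluconate dehydrogenase, had log2 levels of 8.43 in line 41 and 8.36 in line 45, against 7.34 in wild type, and rose 2.08-fold (1.06 ± 0.22 SE, adjusted p = 0.0137 by limma). It did not pass where the features of a gene were averaged. In the tricarboxylic acid cycle list 10 of 26 loci were tested and 2 were higher, beside 14.6% of all features and 11.1% of the named genes. The cytosolic isocitrate dehydrogenase gene cICDH (AT1G65930) had 8.61 in line 41 and 8.33 in line 45, against 6.22 in wild type, and rose 4.76-fold (2.25 ± 0.24, adjusted p = 0.000675). AT5G08300, for an alpha subunit of succinyl-CoA ligase, stood at 6.67 in line 41 and 6.47 in line 45, against 5.17 in wild type, at least 1.91-fold higher, and passed the dim filter only through the lines. The subunit genes of mitochondrial isocitrate dehydrogenase IDH-V and IDH-VI stood at -0.52 and 0.014 and did not pass.

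**Figure D5:**
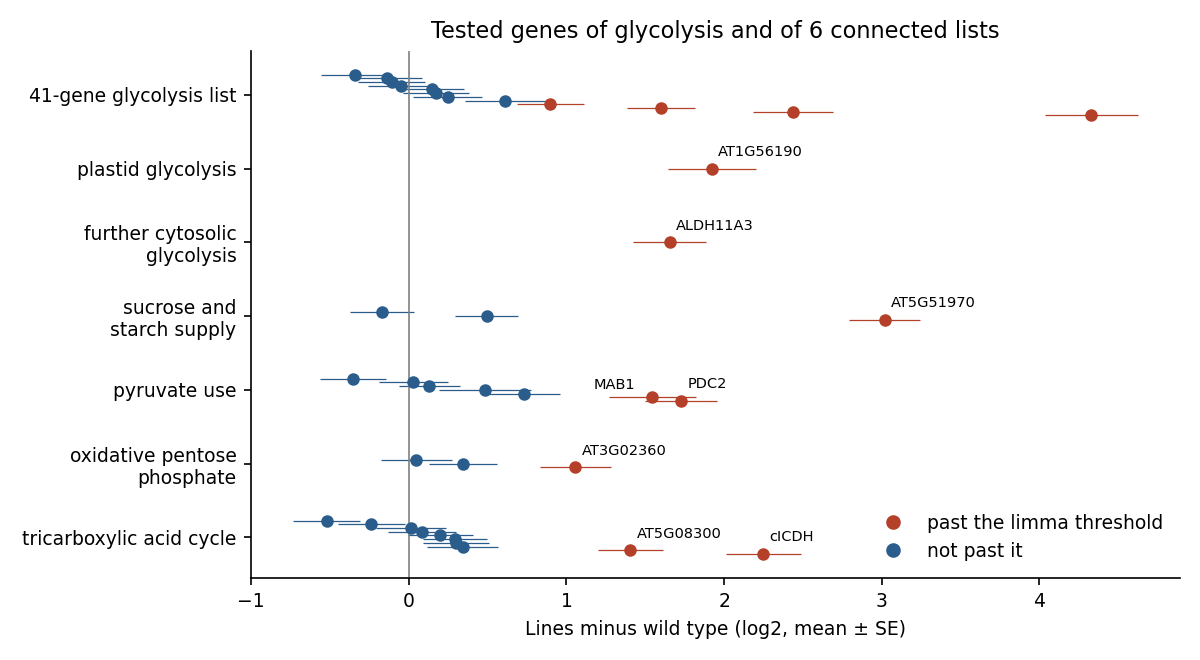
Mean log2 change of the lines against wild type with its SE for the 12 tested glycolysis genes (top row) and the 25 tested genes of the 6 connected lists, each point 1 gene; red points passed limma and are named in the lists, and AT5G51970, PDC2 and AT5G08300 among them passed the dim filter only through the lines. These 3, and DPE1, which did not pass limma and also passed the filter only through the lines, are drawn with wild type not raised to the filter. The 5 other named genes lie at 1.06 or above. Genes of the 6 lists that did not pass lie between -0.52 and 0.73.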

How the data were processed

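The authors deposited 1 value per feature and array, read here as log2 expression because the values lie between 4.04 and 14.8 with none negative. The log base, array platform, background correction and normalization are not stated in the labels or the file. Folds hold only if the base is 2. Array medians lay within 0.1 of each other, and values were kept as deposited. The upper tails differed more. The level above which the brightest 1% of features lay was 10.63 for line 41 and 10.54 for line 45, but 9.62 for wild type. The arrays of the lines had a Pearson correlation of 0.98 over all features. With the wild-type array it was 0.87 for line 41 and 0.89 for line 45. Values under the 5th percentile (4.68) were raised to it, and features with a mean at or above the 40th percentile of means (5.64) were kept. The brightest feature stood for a gene, which left 16905. Lines 41 and 45 were compared with the 1 wild-type array by limma 3.58.1 in R 4.3.3 (lmFit, eBayes with trend, two-sided, Benjamini-Hochberg over all features, adjusted p under 0.05), with 1 residual and 6.76 prior degrees of freedom. The labels name no separate cultures. The p-values and SEs rest on the spread between the arrays of the lines, moderated toward that of all features, and the number of arrays limits the precision. The lone wild-type array was assumed to vary like the lines. The script was tested on simulated data.

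Of the features 17579 were paired with 1 gene, 0 with several and 11206 with none here, and 17491 were found in the RefSeq table of TAIR10.1, used for names only. Enzyme steps of loci without a symbol there are background knowledge. Members and lists were chosen with earlier results of these data known. Each member with a feature is named, and from each connected list up to 4 members that passed, the greatest change first. Others on these lists are given as values and were chosen after their values were seen. Folds marked "at least" set a wild-type level under the dim filter to that filter. Alternatives were 4 other scalings, other filters and floors, eBayes without trend, the mean over the features of a gene, and each line left out.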

Additional observations from a re-analysis of the deposited data

Results flagged for a closer look

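AT3G55650, a pyruvate kinase gene, was below wild type in one transgenic line and above it in the other, with a log2 difference of -0.32 in line 41 and 0.040 in line 45. The lines were apart by -0.36 (line 41 minus line 45). The difference was not tested, since each line had 1 array.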

How the results depend on the processing

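No paired analysis was possible because there was 1 wild-type array and the labels pair it with neither line. With the floor kept but no dim filter, 0 glycolysis genes passed in place of 4, with adjusted p of 0.105 for GAPC2 and AT1G12000, 0.108 for TPI and 0.126 for AT5G56350. In that setting 1069 features had equal values in both lines, against 12 in the values as reported, and the prior degrees of freedom were 1.42. With neither filter nor floor, chosen after seeing the data, 5 passed, with 18 such features and 7.83 prior degrees of freedom. The median change of the tested genes, 0.21, was 0.31 over 16 genes without the dim filter, with or without the floor, and 0.43 over 10 genes with the filter at the 60th percentile. It ran from 0.16 to 0.29 when either line was left out, which allows no test. The log2 change of AT5G08570, -0.049, was 0.010 after centring on the median and 0.024 after cyclic loess. The count past 2-fold in both lines was 3 in all settings run (with a line left out, 3 in the other line). Of all calls, 66.8% were higher as reported, 49.4% after quantile normalization. The counts of the connected lists, recomputed after seeing the data, lost all calls without the dim filter but with the floor. The pyruvate use list had 3 higher in place of 2 after quantile normalization, median centring, cyclic loess, the filter at the 60th percentile and eBayes without trend. The sucrose and starch list had 2 higher after cyclic loess, the tricarboxylic acid list 1 with the filter at the 60th percentile, which tests fewer genes, and the pentose phosphate list 0 with features averaged.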
